A study of Mus musculus with 31 samples.

Results

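Lysosomal genes were followed in dopamine receptor neurons of young and old mice. A list of 36 genes for lysosomal enzymes, enzyme helpers and membrane proteins was matched by gene symbol to the array's gene table. The list was chosen with earlier results of these data known. Counts set against all features therefore describe these genes and are not a test of the list. Of the 36 genes, 34 were measured by an array feature that carries their symbol alone, among 16345 features and 14769 named genes in all. Ctsb and Sgsh had no such feature and were not analysed here. The 34 genes comprise 7 proteases, 9 glycosidases, 4 sulfatases, 4 lipid hydrolases, 2 genes for precursors and cofactors (Psap and Grn) and 8 genes for membrane and transport proteins.

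The RNA came from translating ribosome affinity purification, which pulls down tagged ribosomes, with the messages bound to them, from cells that carry the tag. The tagged cells were those expressing the dopamine receptor gene Drd1a, listed on the array as Drd1, or those expressing Drd2, and the tissue was the entire cortex or the entire striatum. The 31 mouse exon arrays fell into 8 groups, given as age, region and marked cells: old cortex Drd1a, young cortex Drd1a, old cortex Drd2, young cortex Drd2, old striatum Drd1a, young striatum Drd1a, old striatum Drd2 and young striatum Drd2. Old mice were 2 years and young mice 6 weeks of age, and no treatment is named. Each group held 4 arrays except young striatum Drd1a, which held 3. The sources used here give neither the strain and sex, nor the transgenes that carry the ribosome tag, nor whether replicates were separate mice. The p-values therefore rest on the spread between these samples, which may be technical.

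Lysosomes are acidic vesicles in which hydrolases break down proteins, glycans and lipids that arrive by endocytosis and autophagy. Most of the enzymes are made as precursors, carried from the Golgi to the lysosome by sorting receptors, and matured by cleavage. Many of the genes share a promoter element, the CLEAR element, which is bound by the transcription factor TFEB and its relatives. Inherited loss of many of these genes causes storage diseases that affect neurons.

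All values are log2 units relative to the gene's own median over the arrays, so they rank arrays for 1 gene and give no level that could be compared between genes. Differences are log2 differences with the standard error (SE) of the limma model, and "called" means an adjusted p under 0.05 over all 16345 features together with at least a 1.2-fold change. With 4 arrays against 4 the median SE of a difference with age was 0.099, so the small number of arrays limits precision. The marked receptors followed their labels: Drd1 ran from 0.070 to 1.86 in Drd1a arrays and from -3.13 to 0 in Drd2 arrays, and Drd2 ran from -4.87 to -2.90 in Drd1a arrays and from 0 to 0.64 in Drd2 arrays. The old Drd2 arrays stood apart from the young ones in Drd1 and its companion markers, besides the glial markers given further below. Drd1 averaged -0.34 in old striatum Drd2 arrays and -2.75 in young ones, and -1.18 in old cortex Drd2 arrays and -2.91 in young ones. Of 8 direct-pathway markers, genes typical of Drd1-expressing striatal neurons, 6 were called higher in old striatum Drd2 arrays and 4 in old cortex Drd2 arrays. All 4 old arrays of each group shared this, so no result that uses old Drd2 arrays could be recomputed without it, and its part in those results was not tested. Age comparisons in Drd1a cells and comparisons within young mice compare none of these arrays, but the shared estimate of spread includes them. The Drd1a arrays also moved with age. In cortex Drd1a arrays Drd2 was 0.72 ± 0.17 (SE) higher in old mice, without overlap but not called (limma adjusted p = 0.0583). Of 4 measured indirect-pathway markers, genes typical of Drd2-expressing striatal neurons, Penk was called higher in old striatum Drd1a arrays. The part of these shifts was not tested. The median of a whole array lay between -0.072 and 0.13, with 6 arrays over 0.05.

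Most calls with age were made in striatal Drd2 cells. In striatum Drd2 arrays, 9 of 34 lysosomal genes were called higher in old mice and none lower, against 5.70% of all features called in either direction and 2.72% called higher. The differences were positive for 31 of 34 genes, against 46.1% of all features, and the median was 0.26 against -0.0084 over all features. The 9 were Psap, Grn, the membrane protein gene Scarb2, the glycosidase gene Gaa and 5 of 7 protease genes, Ctsa, Ctsd, Ctsf, Ctsl and Ctsz. Such arrays measure all the RNA bound to tagged ribosomes in a tissue, so fewer cells of a type and less RNA per cell cannot be told apart.

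Psap encodes prosaposin, the precursor of the saposins, small proteins that help enzymes reach sphingolipids. It lay at -0.032, 0.078, -0.058 and 0.12 in old striatum Drd2 arrays, against -0.38, -0.83, -0.80 and -0.74 in young striatum Drd2 arrays. Every old array was above every young array, and the highest young array was well apart from the other young ones. The difference was 0.71 ± 0.083 (SE), or 1.64-fold, with an adjusted p of 2.33e-06 in the limma fit.

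Grn encodes progranulin, a secreted protein that is cleaved to granulins in the lysosome. It lay at 0.094, 0.19, 0.032 and 0.12 in old striatum Drd2 arrays, against -0.42, -0.54, -0.50 and -0.74 in young ones, without overlap. The difference was 0.66 ± 0.091 (SE), with an adjusted p of 2.79e-05 in the limma fit. Scarb2, which encodes a membrane protein that carries glucocerebrosidase to the lysosome, lay at -0.097, -0.45, 0.0029 and -0.086 in old and at -0.53, -1.31, -0.50 and -0.98 in young striatum Drd2 arrays. The groups were separated by a narrow gap and the young arrays varied widely, and the difference was 0.67 ± 0.18 (SE, limma adjusted p = 0.0219). This call was lost in 8 of 16 alternative fits.

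Among the proteases, Ctsd, the aspartyl protease cathepsin D, lay at 0, 0.24, -0.38 and 0.38 in old striatum Drd2 arrays and at -0.70, -0.38, -0.44 and -0.71 in young ones. The lowest old array was just above the highest young array, and the difference was 0.62 ± 0.13 (SE, limma adjusted p = 0.00316). Ctsf, a cysteine protease, lay at 0.17, 0.18, 0.14 and 0.13 in old and at -0.46, -0.46, -0.049 and -0.29 in young arrays, with the old arrays close together and a difference of 0.47 ± 0.14 (SE, limma adjusted p = 0.0424). This call, close to the threshold, was also lost in 8 of 16 alternative fits. The cysteine protease genes Ctsl and Ctsz differed by 0.43 ± 0.11 and 0.36 ± 0.11 (SE), with limma adjusted p-values of 0.0163 and 0.0396. Ctsa, which encodes a carboxypeptidase that also protects partner glycosidases in a complex, differed by 0.38 ± 0.093 (SE, limma adjusted p = 0.0115). Old and young arrays overlapped for Ctsl and Ctsa and did not for Ctsz. The calls of Ctsa, Ctsl and Ctsz were lost without old replicate 4, and also in a fit of these arrays alone. The other protease genes were not called: Lgmn, which encodes the asparaginyl endopeptidase, differed by 0.067 ± 0.17 and the tripeptidyl peptidase gene Tpp1 by 0.19 ± 0.080 (SE).

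Of 9 glycosidases only Gaa, the acid alpha-glucosidase that degrades glycogen, was called in striatum Drd2 arrays. It lay at 0.096, 0.48, 0.20 and 0.68 in old arrays, against -0.16, -0.20, -0.10 and -0.18 in young arrays. The young arrays were close together and all below the old ones, and the difference was 0.52 ± 0.12 (SE, limma adjusted p = 0.00645). The remaining glycosidase differences ran from -0.049 ± 0.11 (SE) for Naglu, an enzyme of heparan sulfate breakdown, to 0.41 ± 0.18 (SE) for the galactosylceramidase gene Galc. No sulfatase or lipid hydrolase was called. The sulfatase differences ran from -0.011 to 0.26 and those of the lipid hydrolases from 0.0075 to 0.22. Of the membrane and transport genes other than Scarb2, Cd63, a tetraspanin gene, and the cholesterol-binding protein gene Npc2 had the largest differences, 0.45 ± 0.16 and 0.40 ± 0.15 (SE), and neither was called. Arsb, Galns, Npc1 and Glb1 were uncalled although their old arrays all lay above their young ones. In all, 11 of 34 genes had old arrays entirely above young ones and none the reverse, against 4.19% of all features with old arrays above.

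The striatum Drd2 count was 4 without old replicate 4 and 5 without young replicate 4. Without any other array of the comparison it was from 6 to 9. Old replicate 4 was the highest old array for Psap, Ctsa, Ctsd, Ctsl, Gaa and Ctsz. Without it Psap, Grn, Gaa and Ctsd stayed called, so Ctsd alone of the called proteases kept its call. The whole-array median was -0.072 in old replicate 4, the lowest of all arrays, and 0.091 in young replicate 4. Of the 6 genes given array by array, Psap, Grn and Gaa were called in each of the 16 alternatives that touch this comparison. Ctsd was lost in 1, the fit of these arrays alone (limma adjusted p = 0.0549). Ctsf was lost under quantile normalization and without young replicate 1, 2 or 4 or any 1 old array, with limma adjusted p-values up to 0.135. Scarb2 was lost without young replicate 2 or 4 or old replicate 1, 3 or 4 and under 3 other settings, with limma adjusted p-values up to 0.153.

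Other cell markers moved with this comparison. Astrocyte markers Gfap, S100b, Aldoc and Glul, 4 of 13, were called higher, and their list mean ran from -0.16 to -0.084 in old arrays and from -0.46 to -0.30 in young ones. Of 13 oligodendrocyte markers, Trf and Apod were called higher. The oligodendrocyte list mean ran from 0.24 to 0.37 in old arrays and from -0.26 to 0.19 in young ones. Of 15 microglial markers, Tyrobp was called higher and Cd68 lower, and the list mean ran from 0.12 to 0.25 in old arrays and from -0.088 to 0.064 in young ones. The direct-pathway list mean ran from -0.29 to -0.047 in old arrays and from -1.38 to -1.18 in young ones. The part of these cell types in the lysosomal changes was not tested.

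**Figure D1:**
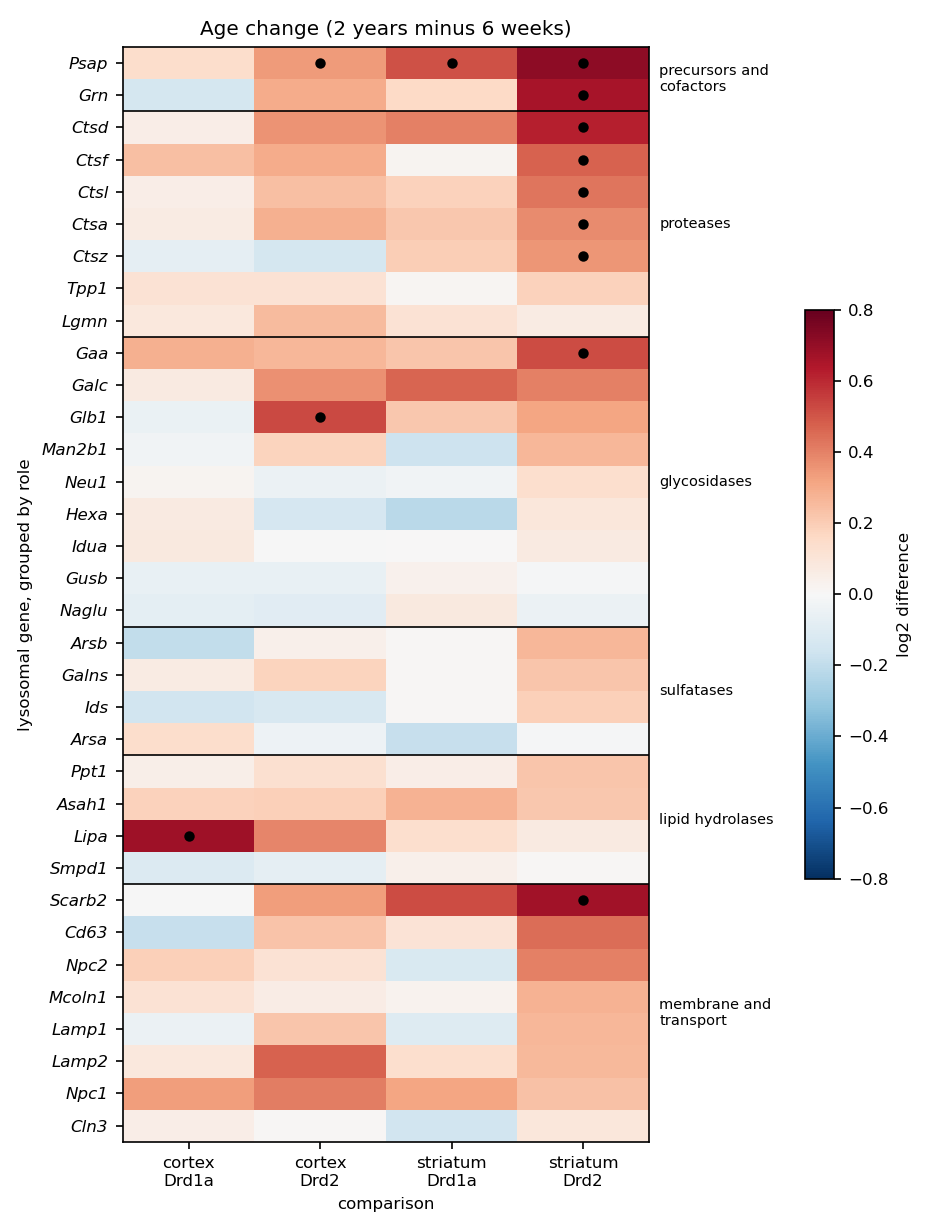
Log2 difference, old minus young, of each of the 34 lysosomal genes (rows, grouped by role) in the 4 age comparisons (columns), with the colour scale in log2 units and black dots at called differences. Of the 13 dots, 9 lie in the striatum Drd2 column, and no dot marks a lower value in old mice.

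Promoters were read because lysosomal genes are known for the shared CLEAR element and 9 of them were called together in striatum Drd2 arrays. The promoter table, from RefSeq on build GRCm38.p6, held 32 of the 36 listed genes. The CLEAR core was searched as TCACGTG on both strands in the 250 bases before the gene start, with each match counted once at its CACGTG centre, and CACGTG alone was searched in the same window. TCACGTG was present in 11 of 32 lysosomal genes (34.4%) and in 968 of 27025 genes with a promoter in the table (3.58%). CACGTG, which every TCACGTG match contains, was present in 13 of 32 (40.6%) and in 1854 of all genes (6.86%). Psap is shown because it was called in more than 1 age comparison, and holds no match. Ctsd, Ctsa and Gaa are shown as called genes that hold the core and Lamp1 as the gene with the most matches, all 4 chosen after their sequences were seen. Ctsa and Psap have 2 starts in the table, and the line gives the start with a match for Ctsa and the start first on its strand for Psap. In each line the sequence runs 5′ to 3′ on the gene's strand up to its start, and capitals mark TCACGTG or its reverse complement.
Ctsd, chr7:142387828-142388077, minus strand: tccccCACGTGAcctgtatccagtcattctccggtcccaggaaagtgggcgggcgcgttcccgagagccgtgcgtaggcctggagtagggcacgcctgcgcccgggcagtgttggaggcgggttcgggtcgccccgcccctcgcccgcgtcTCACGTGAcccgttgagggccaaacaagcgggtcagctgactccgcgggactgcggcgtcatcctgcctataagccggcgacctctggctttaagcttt
Ctsa, chr2:164833523-164833772, plus strand: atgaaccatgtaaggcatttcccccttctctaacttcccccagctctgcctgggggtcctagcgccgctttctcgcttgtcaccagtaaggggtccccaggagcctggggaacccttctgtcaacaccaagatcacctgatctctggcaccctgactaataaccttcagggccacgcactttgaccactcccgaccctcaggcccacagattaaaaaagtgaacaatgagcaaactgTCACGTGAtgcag
Gaa, chr11:119267713-119267962, plus strand: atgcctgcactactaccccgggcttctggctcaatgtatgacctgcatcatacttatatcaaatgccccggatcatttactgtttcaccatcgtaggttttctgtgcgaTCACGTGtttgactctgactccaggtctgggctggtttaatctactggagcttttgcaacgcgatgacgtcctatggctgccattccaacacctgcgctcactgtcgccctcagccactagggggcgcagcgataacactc
Lamp1, chr8:13158911-13159160, plus strand: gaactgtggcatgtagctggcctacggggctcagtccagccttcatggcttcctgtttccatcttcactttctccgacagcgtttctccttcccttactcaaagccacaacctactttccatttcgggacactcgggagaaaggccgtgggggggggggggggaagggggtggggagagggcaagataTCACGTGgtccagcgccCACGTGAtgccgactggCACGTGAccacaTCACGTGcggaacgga
Psap, chr10:60277378-60277627, plus strand: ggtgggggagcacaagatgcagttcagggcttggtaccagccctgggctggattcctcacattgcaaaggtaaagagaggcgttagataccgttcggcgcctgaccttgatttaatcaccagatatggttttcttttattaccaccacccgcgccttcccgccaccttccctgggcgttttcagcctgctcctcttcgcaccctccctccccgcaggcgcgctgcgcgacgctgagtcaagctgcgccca
Lamp1 held 4 matches within 61 bases of its start, Ctsd, Cln3 and Mcoln1 held 2 each, and the other 7 genes held 1 each. A match is a string of letters and shows neither binding nor cause. In the striatum Drd2 age comparison, 3 of the 10 measured genes with the core were called higher (Ctsa, Ctsd and Gaa; median difference 0.27), and 6 of 21 measured genes with a promoter but no core (median 0.26). In this comparison the share called and the median were thus close in genes with and without these letters. In the other age comparisons at most 1 gene of either set was called. The medians with and without the core were 0.061 and 0.049 in cortex Drd1a, 0.24 and 0.13 in cortex Drd2, and 0.096 and 0.041 in striatum Drd1a arrays. A link between the core and the age change was not tested.

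**Figure D2:**
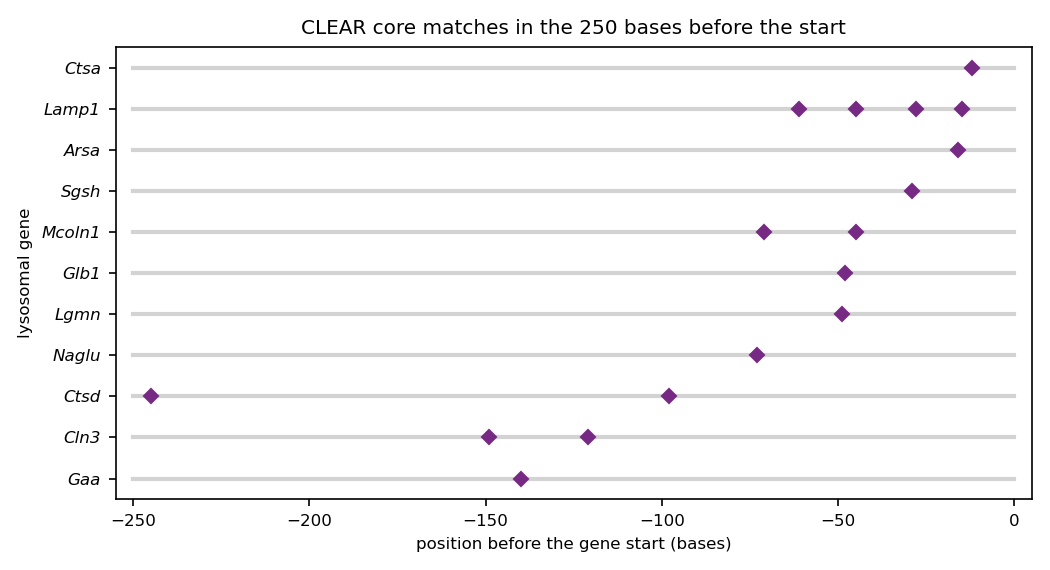
Positions of TCACGTG, read on both strands, in the 250 bases before the start of the 11 lysosomal genes that hold it; the x axis is the distance from the gene start in bases, and each diamond is 1 match. The 4 matches of Lamp1 lie within 61 bases of its start, and the outer match of Ctsd lies 245 bases before it.

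In striatal Drd1a cells 1 of 34 genes was called, against 3.43% of all features in either direction and 1.58% higher, and none was called lower. With array weights, which count less consistent arrays for less, 5 were called higher. The gene was Psap, at 0.17, 0.092, 0 and 0.27 in old striatum Drd1a arrays, against -0.26, -0.54 and -0.33 in the 3 young ones. The groups did not overlap, and the difference was 0.51 ± 0.089 (SE, 1.42-fold, limma adjusted p = 0.00151). Differences were positive for 27 of 34 genes, against 34.2% of all features, and the median was 0.063 against -0.047 over all features. Scarb2 had the largest difference, 0.52 ± 0.20 (SE), but its groups overlapped and it was not called. Ctsd and Galc were not called either, at 0.40 ± 0.14 and 0.47 ± 0.20 (SE), although all their old arrays were above all young ones. Those 2 and Psap were the 3 genes with such a separation, against 4.96% of all features. The call of Psap was lost in a fit of these 7 arrays alone (adjusted p = 0.0686), and 2 genes were called without the arrays whose median exceeded 0.05.

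In cortical Drd2 cells 2 of 34 genes were called higher in old mice and none lower, against 3.63% of all features in either direction and 1.85% higher. Psap lay at 0.0088, 0.15, -0.019 and -0.019 in old cortex Drd2 arrays, against -0.31, -0.43, -0.34 and -0.18 in young ones, with the old arrays all higher. Its difference was 0.34 ± 0.083 (SE, 1.27-fold, limma adjusted p = 0.0175). Glb1, the lysosomal beta-galactosidase, lay at 0.84, 0.42, -0.026 and 0.26 in old arrays, against -0.17, -0.12, -0.15 and -0.17 in young arrays. Its young arrays were nearly equal and its old arrays spread widely, and the difference was 0.53 ± 0.14 (SE, limma adjusted p = 0.0299).

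Differences in cortex Drd2 arrays were positive for 25 of 34 genes, against 40.5% of all features. The median was 0.19 against -0.023 over all features. Grn, at 0.30 ± 0.091 (SE), and Lamp2, which encodes an abundant lysosomal membrane glycoprotein, at 0.47 ± 0.15 (SE), missed the threshold, with limma adjusted p-values of 0.0567 and 0.0744. In 7 genes all old arrays lay above all young ones, against 3.83% of all features. The count of called genes was 0 without old replicate 1, old replicate 2, young replicate 2 or young replicate 3, was 1 without young replicate 1 or 4, and was 4 without old replicate 3 or 4. Glb1 lost its call in 8 of 16 alternative fits and Psap in 6. The astrocyte markers Gfap, Aldoc, Glul and Clu (4 of 13) and the oligodendrocyte markers Mag, Ermn, Trf and Apod (4 of 13) were called higher. In old replicates 1 to 4 the mean of the 34 lysosomal genes was 0.14, 0.061, 0.0034 and -0.0023, the astrocyte mean 0.65, 0.43, 0.20 and 0.077, and the oligodendrocyte mean 0.76, 0.48, 0.29 and 0.10. The array with the highest lysosomal mean thus also had the highest glial means, and the glial part in the result was not tested.

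In cortical Drd1a cells 1 of 34 genes was called higher and none lower, against 0.453% of all features in either direction and 0.214% higher. The gene was Lipa, which encodes the acid lipase that frees cholesterol and fatty acids. It lay at 1.51, 1.59, 1.03 and 0.82 in old cortex Drd1a arrays, against 0.44, 0.72, 0.50 and 0.59 in young ones. All old arrays were higher and spread more widely, and the difference was 0.68 ± 0.15 (SE, 1.60-fold, limma adjusted p = 0.0398). This call was lost without any 1 of the 4 young arrays, without old replicate 1 or without old replicate 2, and under quantile normalization, median centring and a fit of these arrays alone. Psap, called in the other 3 age comparisons, differed by 0.14 ± 0.083 (SE) with overlapping groups and was not called here. Differences were positive for 22 of 34 genes, close to the 65.4% of all features. The median was 0.061 against 0.039 over all features. Old arrays lay above young ones for 4 genes and below them for 1, Ids, against 4.47% and 3.60% of all features. Of 13 oligodendrocyte markers Ermn, Trf and Apod were called higher in these arrays, and their list mean ran from -0.13 to 0.16 in old arrays and from -0.46 to -0.34 in young ones. None of 15 microglial markers was called, but their list mean ran from -0.051 to 0.23 in old arrays and from -0.31 to -0.20 in young ones, without overlap. None of 13 astrocyte markers was called, and their mean ran from 0.39 to 0.77 in old and from 0.29 to 0.52 in young arrays. The part of these cells in the Lipa difference was not tested.

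Across the 4 age comparisons 11 of 34 genes were called at least once, against 9.71% of all features. Psap, called 3 times, was the 1 gene called more than once, against 2.80% of all features. No lysosomal gene was called in all 4, and of all 16345 features 3 were called higher and 4 lower in all 4. In 16 genes the difference was positive in each of the 4, as it was in 12.2% of all features. The 4 comparisons share no arrays, but all take their SE from 1 estimate of spread per gene over the 31 arrays. In fits of the compared groups alone, Psap kept its call in striatum Drd2 arrays only. Direct tests of whether the age change differed between cell types or regions called no lysosomal gene. For age by cell type, Drd2 minus Drd1a, 0.104% of all features were called in cortex and 0.0734% in striatum. For age by region, striatum minus cortex, 0% of all features were called in Drd1a cells and 0.0184% in Drd2 cells. At an unadjusted limma p under 0.05 there were 2, 5, 3 and 3 lysosomal genes in these 4 tests, in the order given. Among the alternatives, quantile normalization called 1 gene for age by cell type in cortex, and array weights called 1 in striatum. Grn had the smallest p of the genes in striatum, with an age change 0.50 ± 0.13 (SE) larger in Drd2 than in Drd1a cells and an adjusted p of 0.209 in the limma fit. Psap had an age change 0.37 ± 0.12 (SE) larger in striatum than in cortex among Drd2 cells, with an adjusted p of 0.499 in the same fit. A larger number of calls in striatal Drd2 cells is therefore not a shown difference between cell types for any 1 gene.

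**Figure D3:**
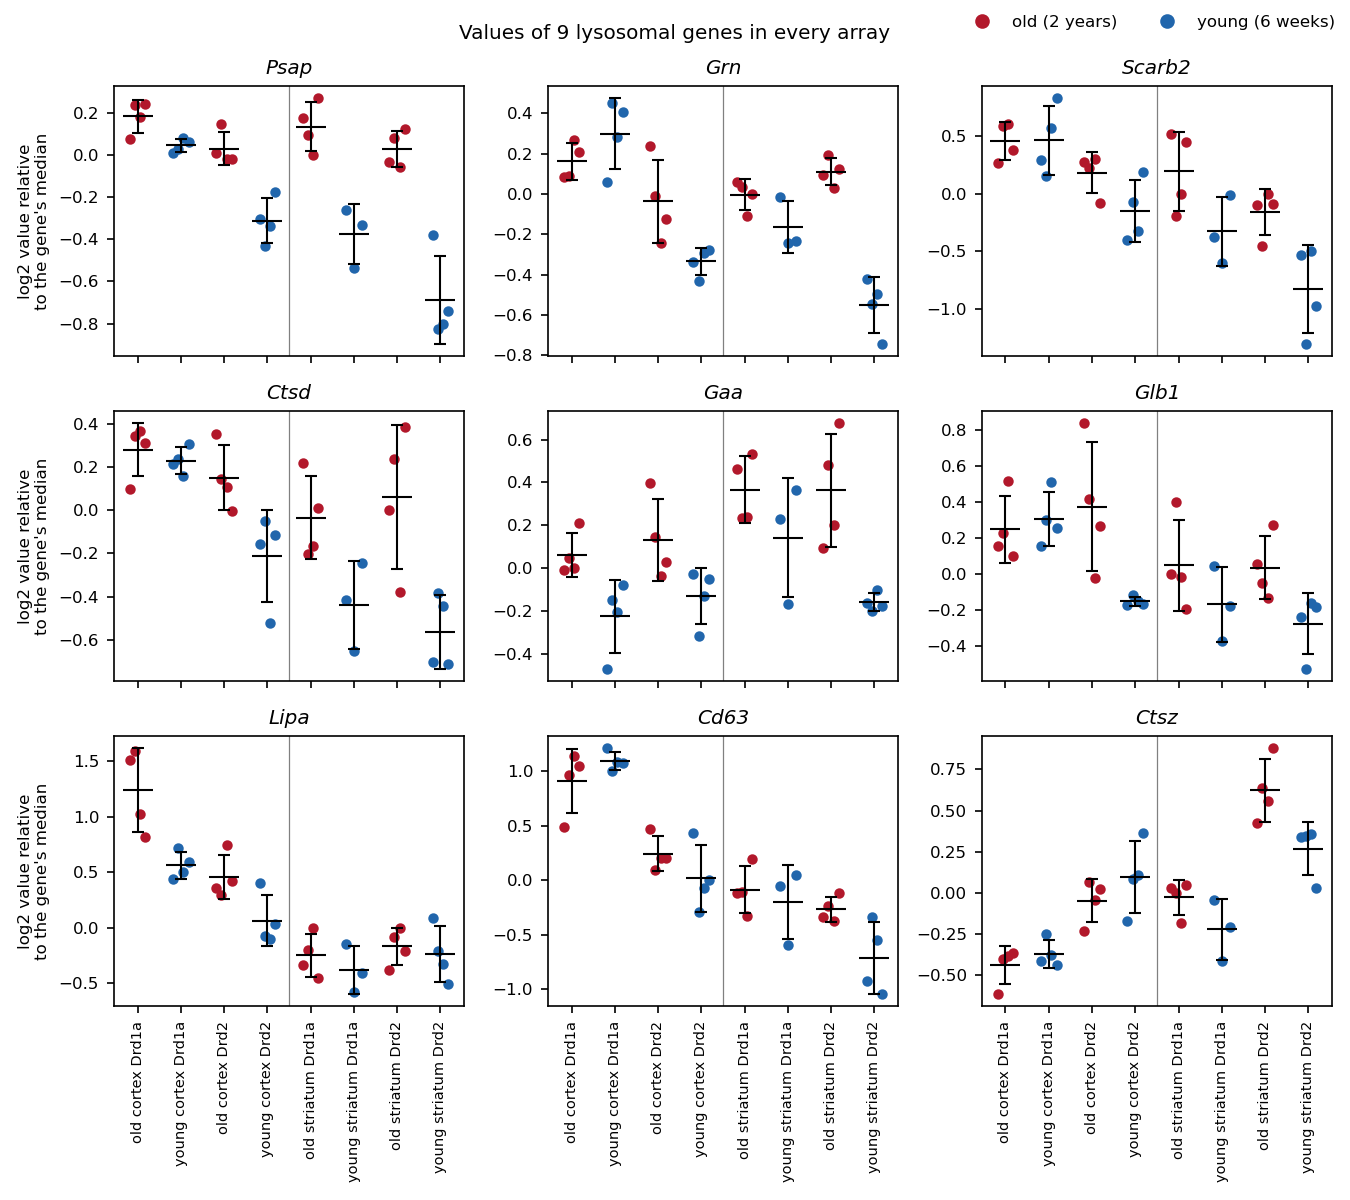
Values of 9 lysosomal genes in every array (points), as log2 relative to the gene's median, in the 8 groups, with the mean and SD as bars, old groups in red and young groups in blue. The mean of Psap is higher in the old than in the young group of every pair and lowest in young striatum Drd2, while Lipa and Cd63 are highest in cortex Drd1a arrays and Ctsz is highest in old striatum Drd2 arrays.

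Between Drd1a and Drd2 cells, most lysosomal genes were called in young cortex. There 9 of 34 genes were called higher in Drd1a arrays and 1 lower, against 6.67% of all features called higher and 5.30% called lower. The 9 were Psap, Grn, Scarb2, Lamp1, Cd63, Glb1, Lipa, Ctsd and Ctsl. Differences were positive for 29 of 34 genes, against 47.8% of all features. Cd63 lay at 1.21, 1.00, 1.09 and 1.08 in young cortex Drd1a arrays, against 0.44, -0.29, -0.072 and 0 in young cortex Drd2 arrays, a wide gap of 1.08 ± 0.16 (SE, limma adjusted p = 1.64e-05). Grn lay at 0.059, 0.45, 0.28 and 0.41 in Drd1a arrays, against -0.34, -0.43, -0.29 and -0.28 in Drd2 arrays. Its difference was 0.63 ± 0.091 (SE, limma adjusted p = 7.98e-06), again without overlap. Scarb2 and Lipa differed by 0.62 ± 0.18 and 0.50 ± 0.15 (SE), with limma adjusted p-values of 0.0210 and 0.0277, and these calls were lost in 4 and 6 of 16 alternative fits. The count was 6 in place of 10 without young cortex Drd2 replicate 3. Of 13 astrocyte markers 7 were called higher and 1 lower in the same comparison, with a list mean from 0.29 to 0.52 in Drd1a arrays and from -0.17 to 0.037 in Drd2 arrays, and 4 of 13 oligodendrocyte and 3 of 15 microglial markers were called lower. Of 8 interneuron markers Vip, Npy and Kit were called higher and Slc5a7 and Slc18a3 lower. The interneuron list mean ran from 0.98 to 1.26 in Drd1a arrays and from 0.11 to 0.40 in Drd2 arrays. The part of glial and interneuron RNA in the cortical difference was not tested.

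In old cortex, Lipa and Cd63 were called higher in Drd1a arrays and Ctsz lower, against 3.82% of all features called higher and 2.66% called lower. Lipa differed by 0.78 ± 0.15 (SE, limma adjusted p = 0.00138) and Cd63 by 0.67 ± 0.16 (SE, limma adjusted p = 0.00948). Under quantile normalization neither was called, with Lipa at 0.38 (limma adjusted p = 0.165) and Cd63 at 0.39 (limma adjusted p = 0.120). In the same comparison 6 of 13 oligodendrocyte markers were called lower (Mag, Cnp, Ermn, Opalin, Ugt8a and Trf), the astrocyte markers Slc1a3 and S100b higher, and of 8 interneuron markers Sst, Vip, Npy and Kit higher and Slc5a7 and Slc18a3 lower. The oligodendrocyte list mean ran from -0.13 to 0.16 in old cortex Drd1a arrays and from 0.10 to 0.76 in old cortex Drd2 arrays, and the interneuron list mean from 0.86 to 1.16 in the Drd1a arrays and from 0.25 to 0.62 in the Drd2 arrays. The part of these cells in the result was not tested. Without old cortex Drd2 replicate 1 the count was 5 in place of 3. In young striatum Grn was called higher in Drd1a arrays by 0.39 ± 0.098 (SE), Arsb, a sulfatase of dermatan sulfate breakdown, by 0.44 ± 0.12 (SE), and Ctsz lower, against 1.68% of all features called higher and 1.37% called lower. The limma adjusted p-values of Grn and Arsb were 0.0219 and 0.0434, and of 15 alternative fits these calls were lost in 5 and 10. That count was 1 without young striatum Drd2 replicate 4 or without young striatum Drd1a replicate 1. In old striatum Ctsz alone was called, lower in Drd1a arrays, against 1.63% of all features called higher and 1.18% called lower. Of the 34 differences there, 17 were positive and 17 negative, where 42.5% of all features were positive. With array weights 5 genes were called in old striatum, 2 higher and 3 lower, and 5 in young striatum.

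Ctsz was thus lower in Drd1a than in Drd2 cells in each of the 4 settings. In old striatum it lay at 0.029, 0, -0.18 and 0.047 in Drd1a arrays, against 0.42, 0.63, 0.56 and 0.88 in Drd2 arrays. In young striatum it lay at -0.044, -0.41 and -0.21 in Drd1a arrays, against 0.34, 0.35, 0.36 and 0.028 in Drd2 arrays. The differences were -0.39 ± 0.11 in old cortex, -0.65 ± 0.11 in old striatum, -0.47 ± 0.11 in young cortex and -0.49 ± 0.11 in young striatum (SE), with limma adjusted p-values of 0.0198, 2.19e-04, 0.00242 and 0.0116. The call was lost in 3 of 16 alternative fits in old cortex and in 3 of 15 in young striatum. No Drd1a array reached the lowest Drd2 array of its own age and region. Of 8 interneuron markers, Slc5a7 was likewise called lower in Drd1a arrays in all 4 settings, and Slc18a3 in all but young striatum. Other interneuron markers were called higher in all but young striatum, among them Pvalb and Npy in old striatum. No astrocyte, oligodendrocyte or microglial marker was called in either striatal comparison. In old striatum the oligodendrocyte list mean ran from -0.17 to 0.041 in Drd1a arrays and from 0.24 to 0.37 in Drd2 arrays, without overlap. In young striatum these ranges overlapped. In cortex, oligodendrocyte markers were called lower in Drd1a arrays at both ages, as were the microglial markers Ctss, Tyrobp and Cd68 in young cortex. Astrocyte markers there were called higher at both ages, with 1 lower in young cortex. The part of these cells in the Ctsz difference was not tested.

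Between regions, striatum and cortex Drd1a cells of young mice differed in 11 of 34 genes, 3 higher and 8 lower in striatum, against 9.94% of all features called higher and 9.10% called lower. Cd63 and Lipa had the largest differences, -1.30 ± 0.17 and -0.94 ± 0.17 (SE), followed by Scarb2 at -0.79 ± 0.20 and Ctsd at -0.67 ± 0.14 (SE), with limma adjusted p-values of 1.68e-06, 8.13e-05, 0.00335 and 7.04e-04. Npc2 was higher in striatum by 0.65 ± 0.16 (SE, limma adjusted p = 0.00379), with Hexa, the alpha subunit of hexosaminidase A, and Gaa. Without young striatum Drd1a replicate 3 the count was 7. In young Drd2 cells Cd63, Scarb2 and Psap were called lower in striatum, with differences of -0.73 ± 0.16, -0.68 ± 0.18 and -0.37 ± 0.083 (SE), and none higher, against 4.57% of all features called lower and 3.01% called higher. Their limma adjusted p-values were 0.00328, 0.0159 and 0.00331. Under quantile normalization Psap moved to -0.12 (limma adjusted p = 0.481) and Scarb2 to -0.44, and neither was called. Scarb2 lost its call in 4 of 16 alternative fits, including those without young striatum Drd2 replicate 2 or young cortex Drd2 replicate 4.

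In old Drd1a cells 3 genes were called higher and 2 lower in striatum, against 7.32% of all features called higher and 8.80% called lower. Lipa lay at -0.34, -0.20, -0.0013 and -0.45 in old striatum Drd1a arrays, against 1.51, 1.59, 1.03 and 0.82 in old cortex Drd1a arrays, a gap of -1.48 ± 0.15 (SE, limma adjusted p = 2.35e-08). Cd63 was also lower in striatum, with a difference of -1.0 ± 0.16 (SE), and Ctsz, Arsb and Ctsa were higher, by 0.42 ± 0.11, 0.40 ± 0.11 and 0.33 ± 0.093 (SE). The limma adjusted p-values of Cd63, Ctsz, Arsb and Ctsa were 3.21e-05, 0.00492, 0.0107 and 0.0108. Without old striatum Drd1a replicate 1 the count was 8, and with array weights 10. In old Drd2 cells 2 genes were called higher and 2 lower, against 5.04% and 6.31% of all features. Ctsz and Npc2 were higher in striatum by 0.67 ± 0.11 and 0.53 ± 0.15 (SE), and Lipa and Cd63 were lower, with differences of -0.62 ± 0.15 and -0.51 ± 0.16 (SE). Their limma adjusted p-values were 6.53e-05, 0.0185, 0.00637 and 0.0342, and the count was 2 without old cortex Drd2 replicate 1 and 7 with array weights. The calls of Npc2 and Cd63 were lost in 6 and 7 of 16 alternative fits. Set against these shares, 2 or 3 of 34 genes in 1 direction is near the background, and only the 8 of 34 called lower in young striatum Drd1a arrays lay well above it. The regions also differed in glial markers: the astrocyte list mean ran from -0.21 to 0.0063 in old striatum Drd1a arrays and from 0.39 to 0.77 in old cortex Drd1a arrays, and from -0.45 to -0.065 in young striatum Drd1a arrays and from 0.29 to 0.52 in young cortex Drd1a arrays. The interneuron list mean differed more: it ran from -0.54 to -0.24 in old striatum Drd1a arrays and from 0.86 to 1.16 in old cortex Drd1a arrays, and from -0.81 to -0.14 in young striatum Drd1a arrays and from 0.98 to 1.26 in young cortex Drd1a arrays. Of its 8 markers Pvalb, Sst, Vip, Npy and Kit were called lower in striatum Drd1a arrays at both ages, and Pvalb, Sst, Vip and Npy in striatum Drd2 arrays at both ages. The part of these cell types in the regional differences was not tested.

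**Figure D4:**
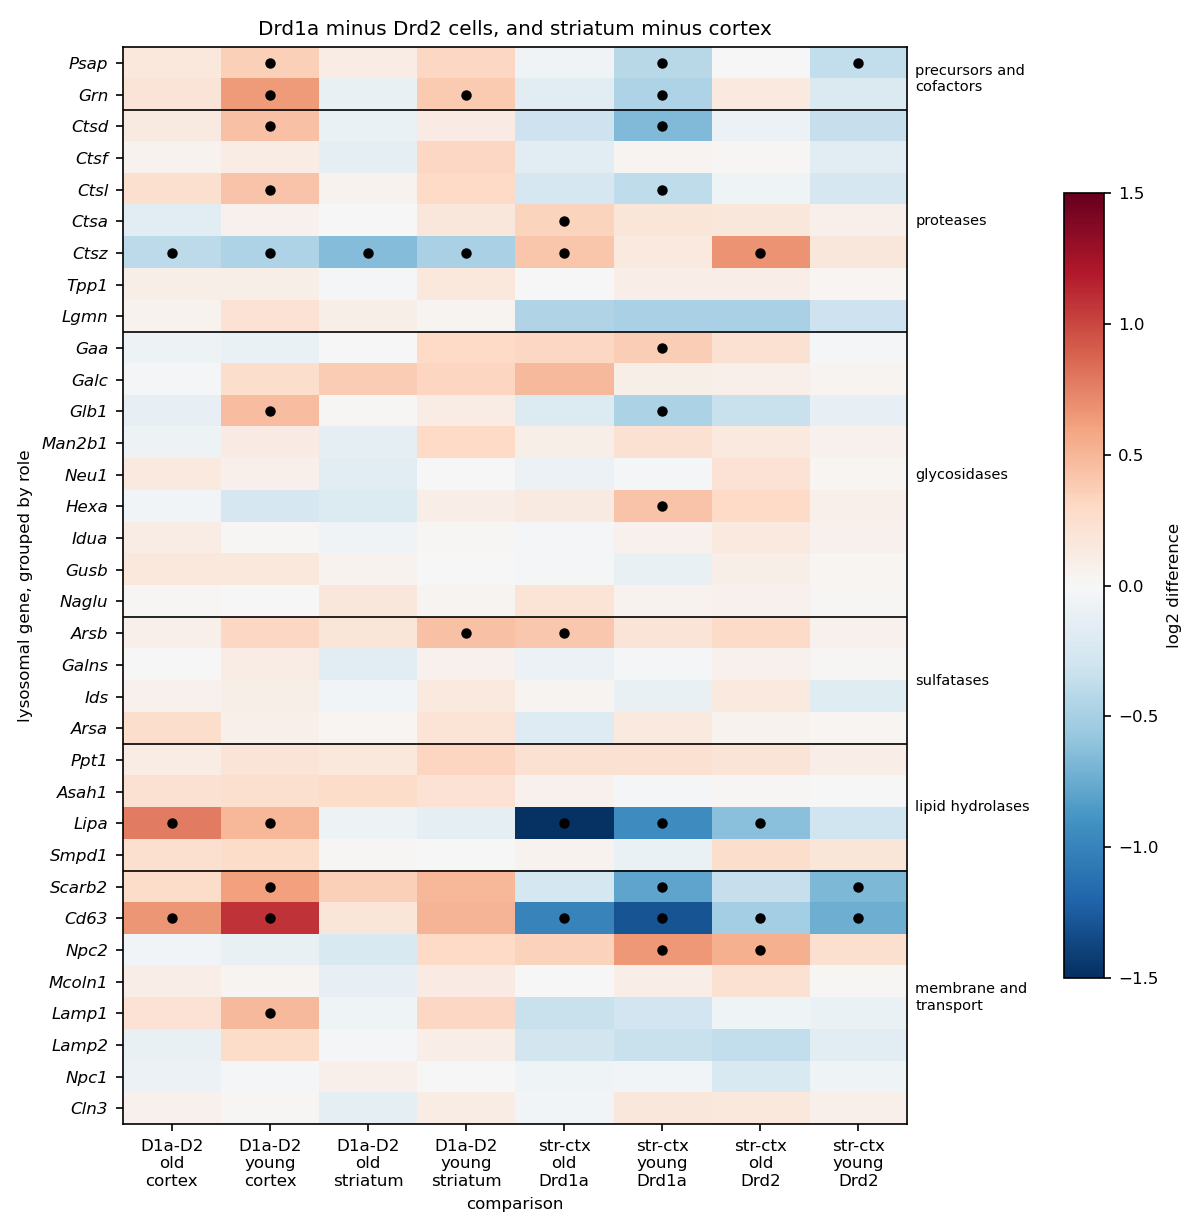
Log2 differences of the 34 lysosomal genes (rows, grouped by role) in the 4 comparisons of Drd1a minus Drd2 (D1a-D2) and the 4 of striatum minus cortex (str-ctx), with the colour scale in log2 units and black dots at called differences. Ctsz is marked as lower in Drd1a cells in all 4 comparisons, and Cd63 as lower in striatum in all 4.

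Other genes with a part in lysosomal function, outside the 36 and not all coding for proteins of the lysosome itself, were read from 4 further lists. In striatum Drd2 arrays 1 of 16 other hydrolases and cofactors was called higher in old mice, 2 of 16 other membrane proteins, 2 of 17 subunits of the V-ATPase, the pump that acidifies lysosomes, and 1 of 18 genes of lysosomal sorting and regulation, and none lower. These are 1 or 2 genes a list, where 2.72% of all features were called higher. Fuca1, the alpha-fucosidase, lay at a mean of 0.23 in old and -0.19 in young arrays, a difference of 0.42 ± 0.098 (SE, limma adjusted p = 0.00830). Slc17a5, the sialic acid exporter, differed by 0.63 ± 0.14 (SE, limma adjusted p = 0.00422), and Laptm4b by 0.85 ± 0.21 (SE, limma adjusted p = 0.0125). Atp6ap1 and Atp6ap2, accessory subunits of the pump, differed by 0.53 ± 0.092 and 0.37 ± 0.11 (SE), with limma adjusted p-values of 4.53e-04 and 0.0377. Sort1, which encodes the sorting receptor sortilin, differed by 0.40 ± 0.10 (SE, limma adjusted p = 0.0173). The medians of these 4 lists were 0.13, 0.16, -0.0025 and 0.044, below the 0.26 of the 34 genes. The 34 genes and the lists were chosen with earlier results of these data known, so this contrast is not a test.

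Elsewhere few genes of these lists changed with age. In cortex Drd2 arrays Atp6v1a was called higher in old mice (0.50 ± 0.14, SE, limma adjusted p = 0.0336) and Cln8 lower (-0.44 ± 0.12, SE, limma adjusted p = 0.0305). In striatum Drd1a arrays Laptm4b was called higher (0.83 ± 0.23, SE, limma adjusted p = 0.0386), and in cortex Drd1a arrays Vps11, a subunit of vacuolar tethering complexes (0.44 ± 0.10, SE, limma adjusted p = 0.0450). Between regions, V-ATPase subunits were called lower in striatum, 4 of 17 in old Drd1a cells, 6 in old Drd2 cells, 9 in young Drd1a cells and 4 in young Drd2 cells, against 8.80%, 6.31%, 9.10% and 4.57% of all features in that order. In young Drd1a cells 1 subunit gene, Atp6v0a2, was called higher. Atp6v1a, the catalytic subunit, was called in each, with differences of -0.75 in old Drd1a, -0.91 in old Drd2, -0.98 in young Drd1a and -0.67 in young Drd2 cells. The interneuron and astrocyte list means were also lower in striatum at both ages and in both marked cell types. The part of those cells in the V-ATPase differences was not tested. Ctso, a cysteine protease outside the 36, was called higher in Drd1a than in Drd2 cells in all 4 settings, by 0.41 in old cortex, 0.49 in old striatum, 0.60 in young cortex and 0.53 in young striatum.

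**Figure D5:**
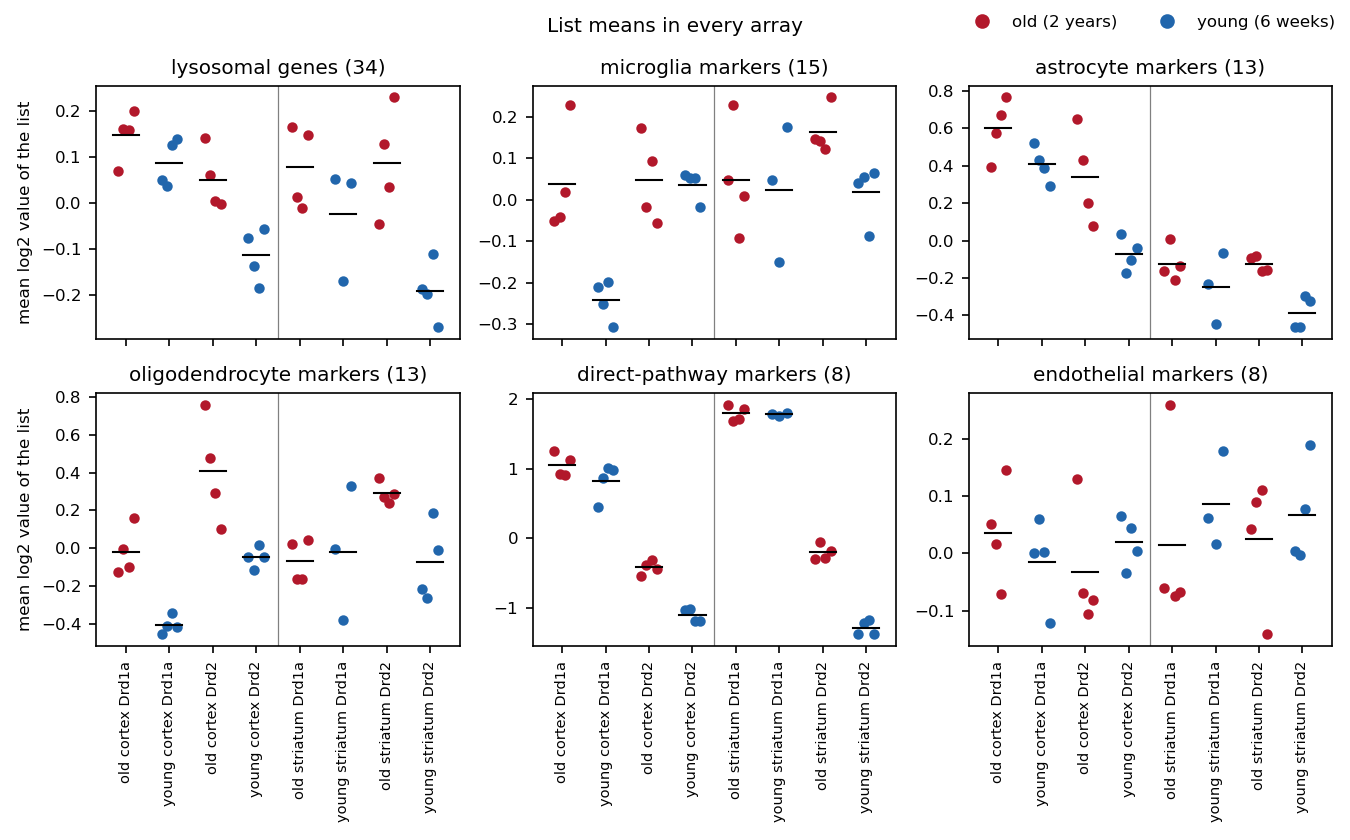
Mean log2 value, in every array (points), of the 34 lysosomal genes and of 5 marker lists in the 8 groups, with the group mean as a bar, old groups in red and young groups in blue, and the number of measured genes in each title. The lysosomal mean is lowest in young striatum Drd2 arrays, from -0.27 to -0.11, and the direct-pathway mean differs between old and young Drd2 arrays in both regions.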

How the data were processed

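The authors deposited log2 values of 31 arrays. Per the submitters' processing notes they used RMA, robust multi-array averaging, and build mm8. Each feature is relative to its own median (0 within 1e-06 for 16341 of 16345 features). No absolute level, background or depth is kept. In 3 columns, whose unit is recorded as other, the deposited table holds 1 value without a decimal point each, and these were treated as missing, as was 1 empty cell. Gene names are those of the platform's table, where 14793 features carried 1 symbol, 814 several and 738 were not listed.

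Groups came from the sample labels. A limma 3.58.1 model (R 4.3.3) gave each group 1 mean over the 31 arrays. It had 23 residual and 4.68 prior degrees of freedom and a common SD of 0.126. Tests were two-sided with Benjamini-Hochberg adjustment over all features, and the thresholds are those the submitters state. The fit was tested on simulated data. The members and lists were chosen with earlier results of these data known. Every array value is given for up to 6 called members with the largest change per age comparison. Alternatives were quantile normalization, median centring, the compared groups alone, replicate blocks, array weights, no fold threshold, 6 arrays of high median left out, and each array left out in turn. Replicate numbers did not pair the arrays: in none of 12 comparisons were the residual correlations of all same-numbered arrays over 0.1. Promoters came from RefSeq (GRCm38.p6).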

Additional observations from a re-analysis of the deposited data

Results flagged for a closer look

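In 13 of 245 sets of 4 arrays, 1 array lay far from the other 3, which is 5.31%, and chance alone gives about 5%. In old striatum Drd1a arrays, replicate 2 lay above the others for 3 genes: Naglu at 0.56 (others -0.0095 to 0.075), Cln3 at 0.417 (others -0.19 to -0.085) and Idua at 0.357 (others -0.072 to -0.015). This array is among the 6 whose median exceeded 0.05. In old cortex Drd2 arrays, Psap was 0.147 in replicate 2 (others -0.019 to 0.0088), Ctsa was -0.0547 in replicate 2 (others 0.15 to 0.19), and Cln3 was 0.236 in replicate 1 (others -0.12 to -0.075). In old cortex Drd1a arrays, Ctsf was 0.76 in replicate 4 (others -0.032 to 0.070) and Ctsz was -0.614 in replicate 1 (others -0.40 to -0.37). In young cortex Drd1a arrays, replicate 2 was low for Ctsf, at -0.311 (others 0.017 to 0.065), and for Ctsl, at 0.0968 (others 0.24 to 0.27). Single arrays also stood apart for Mcoln1 in young cortex Drd2 replicate 4, at 0.13 (others -0.16 to -0.13), for Neu1 in old striatum Drd2 replicate 2, at 0.396 (others 0.025 to 0.041), and for Ctsz in young striatum Drd2 replicate 4, at 0.0276 (others 0.34 to 0.36).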

How the results depend on the processing

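No direction of a named gene reversed. With 1 array left out, named genes stayed on their side of the threshold in 228 recomputed tests and lost their call in 60, and under the other settings they stayed in 262 and lost it in 34. With the replicate number as a fixed block, and with a random block, no count of called lysosomal genes changed: it was 1 in cortex Drd1a, 2 in cortex Drd2, 1 in striatum Drd1a and 9 in striatum Drd2 for age. Same-numbered arrays did not deviate together, except that in young cortex each array correlated best with its own number (0.014 to 0.18), a hint from the data only. Removing the fold threshold moved no count.

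Quantile normalization gave 0 called genes for age in cortex Drd1a, 5 for age in cortex Drd2, 1 for Drd1a against Drd2 in old cortex, 0 in young striatum, 1 for striatum against cortex in young Drd2 cells and 1 for age by cell type in cortex. Centring arrays on their medians gave 0 for age in cortex Drd1a. With the compared groups alone, which leaves fewer residual degrees of freedom, the age counts were 0 in cortex Drd1a, 0 in cortex Drd2, 0 in striatum Drd1a and 4 in striatum Drd2, Drd1a against Drd2 in young striatum gave 0, and the region count in young Drd2 cells was 1. Array weights gave 5 for age in striatum Drd1a, 5 for Drd1a against Drd2 in old striatum and 5 in young striatum, 10 and 7 between regions in old Drd1a and old Drd2 cells, and 1 for age by cell type in striatum. Without the 6 arrays of high median, the counts were 0 for age in cortex Drd2, 2 for age in striatum Drd1a, 1 for Drd1a against Drd2 in young striatum and 2 between regions in old Drd2 cells. The cause of these moves was not tested.

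With each array left out in turn, the age counts ranged from 0 to 1 in cortex Drd1a, 0 to 4 in cortex Drd2, 1 to 1 in striatum Drd1a and 4 to 9 in striatum Drd2. Drd1a against Drd2 gave 2 to 5 in old cortex, 1 to 1 in old striatum, 6 to 10 in young cortex and 1 to 4 in young striatum. The region counts were 5 to 8 in old Drd1a, 2 to 5 in old Drd2, 7 to 10 in young Drd1a and 2 to 4 in young Drd2 cells, and the interactions stayed at 0. The values keep no signal over background, so dim features could not be set aside.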
